A study of Arabidopsis thaliana with 6 samples.

Results

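The cysteine-rich receptor-like kinases (CRKs) of Arabidopsis thaliana were examined as a gene family in whole seedlings that had been given a bacterial elicitor. The members were taken by locus code from a list of 42 loci, CRK1 to CRK42. Of these, 41 were among the 28259 loci with a row in the expression tables and 39 had at least 1 count in some library. The locus without a row, AT4G11500, is annotated as a transcribed pseudogene in the TAIR10.1 assembly and was not analysed here. The treated seedlings received 3-OH-C10:0 (3-hydroxydecanoic acid), a fatty acid found in bacterial lipopolysaccharide that Arabidopsis perceives with the lectin receptor kinase LORE, and the control seedlings received the solvent dimethyl sulfoxide (DMSO). Both groups were wild-type Col-0 (ecotype Columbia), 10 days old, raised with 10 h of light and 14 h of dark per day and kept overnight in water under light before the exchange of medium, and both were harvested 8 h after it. Each group held 3 libraries. The concentration is 5 microM in one label and 5 mM in another, so no dose is stated here. The series asks how the kinase RIPK and NADP-malic enzyme 2 feed the production of reactive oxygen species. Nothing in the labels says that replicates were grown separately, so the p-values measure the spread between these samples, which may be technical.

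CRKs are receptor kinases of the plasma membrane. Their outer part carries a tandem pair of DUF26 domains, each built around the cysteine motif C-8X-C-2X-C (a cysteine, 8 other residues, a cysteine, 2 other residues, a cysteine), and their inner part is a serine/threonine protein kinase. Several members are known for roles in immunity and in the handling of extracellular reactive oxygen species: they associate with the flagellin receptor FLS2 and its co-receptor BAK1, they act on the NADPH oxidase RBOHD, and forced expression of some of them sets off cell death. Many CRK genes lie side by side on chromosome 4 and are known to be induced by pathogens, salicylic acid and ozone.

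The estimated counts of a library summed to between 18064723 and 27131500 in the treated group and to between 19390988 and 21000782 in the DMSO group, so that 3 counts stood for 0.111 to 0.166 CPM (counts scaled to library size). All intervals and lower bounds below reflect counting error alone. The leaf markers and 4 of the 5 root markers were present in both groups, while the fifth root marker, AGP30, had 3, 2 and 1 counts in treated libraries, at or under the floor of 3 counts, against 352, 248 and 425 counts in DMSO libraries. VGD1, a pollen gene, was at 0 in all libraries and the 2 pollen markers together did not pass 0.10 FPKM (fragments scaled to transcript length and library size). Most marker levels moved with the treatment: 4 mesophyll genes summed to between 8111 and 10899 FPKM in treated libraries, against 27950 to 29548 FPKM in DMSO libraries. Of these genes LHCB2.1 overlapped between the groups and did not pass in the edgeR test (log2 fold change -0.32, adjusted p = 0.524). The sum of 5 root genes was between 340 and 497 FPKM in treated libraries and between 731 and 815 FPKM in DMSO libraries, most of it from PYK10 (383 FPKM in treated and 743 FPKM in DMSO seedlings). The other 4 root genes summed to between 17.7 and 23.2 FPKM in treated libraries and between 37.3 and 47.99 FPKM in DMSO libraries, and of them EXPA7 did not pass (log2 fold change 0.11, adjusted p = 0.556). The guard cell gene MYB60 was at 2.74 to 3.15 FPKM in treated and at 8.67 to 9.45 FPKM in DMSO libraries. The phloem gene SUC2 was at 141 to 158 FPKM in treated and at 90.4 to 95.2 FPKM in DMSO libraries. Their part in the CRK values was not tested, and in whole seedlings a change in the number of cells of a type cannot be told apart from a change in RNA per cell.

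Most CRK genes were higher after 3-OH-C10:0, and the family as a whole stood well above its level in DMSO seedlings. Of the 38 members that passed the filter on low counts, 29 were higher, 4 were lower (CRK12, CRK16, CRK30 and CRK42) and 5 did not pass the threshold (CRK4, CRK21, CRK25, CRK26 and CRK41), with edgeR's quasi-likelihood test and Benjamini-Hochberg adjustment over 19768 genes at 0.05. Among all tested genes, 35.6% were higher and 35.8% were lower, so the share of members called higher, 76.3%, lay above the background and the share called lower, 10.5%, below it. An increase of at least 8-fold was found for 17 members and for 3.96% of all tested genes. The 3 treated libraries lay wholly above or wholly below the 3 DMSO libraries for 34 members, against 75.9% of all tested genes. The median log2 fold change (treated over DMSO, here and throughout) was 1.94 over the tested members and -0.04 over all tested genes. These counts are descriptions, because 11 members passed the filter through the treated libraries alone and 1 member, CRK16, through the DMSO libraries alone. Such members had to differ. Those that passed through the treated libraries were CRK6, CRK7, CRK8, CRK15, CRK20, CRK24, CRK31, CRK32, CRK37, CRK38 and CRK39. Of the 26 members that reached the filter's level of 0.485 CPM in all 6 libraries, 18 were higher, 3 were lower and 5 did not pass, while 35.5% of the 18350 genes that did the same were higher and 36.2% were lower. CRK1 and CRK33 had no count in any library, and CRK23 stayed below the filter with 8, 11 and 4 counts in treated libraries and 2, 1 and 0 counts in DMSO libraries.

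**Figure D1:**
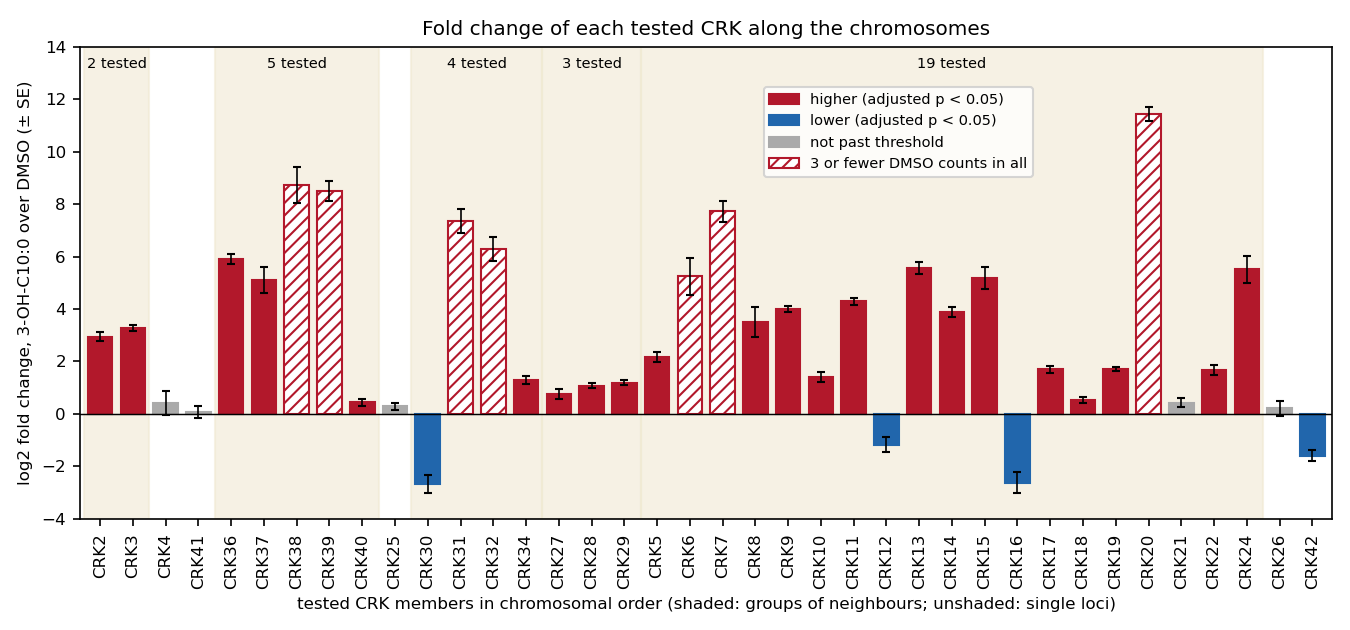
Bars give the fitted log2 fold change (3-OH-C10:0 over DMSO, vertical axis, ± standard error, 3 libraries per group) of each of the 38 tested CRK genes in chromosomal order, red for higher, blue for lower and grey for not past the threshold. Hatched bars mark 7 members with 3 or fewer DMSO counts in all, whose height depends on the prior count of the fit, and the 4 blue bars are CRK30, CRK12, CRK16 and CRK42.

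Levels between members were compared in FPKM, which is per length of transcript. The CRK genes summed to 893, 956 and 824 FPKM in the treated libraries, against 219, 249 and 239 FPKM in the DMSO libraries. All 3 treated sums lay above all 3 DMSO sums, and the ratio of the group means was 3.78 (891 ± 65.7 in treated and 236 ± 15.01 FPKM in DMSO seedlings, SD, n = 3 each). The family held 0.126% ± 0.0086 of all FPKM in treated and 0.0318% ± 0.0021 in DMSO seedlings. In every treated library 30 members reached 1 FPKM and 14 reached 10 FPKM, whereas in the DMSO libraries 22, 21 and 24 members reached 1 FPKM and 5 reached 10 FPKM.

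The order of the members differed between the groups. In treated seedlings CRK19 (mean 109 FPKM), CRK13 (105 FPKM), CRK11 (91.2 FPKM) and CRK9 (84.2 FPKM) stood highest, and the ranges of neighbours in this order overlapped, so these 4 were not separated from one to the next. CRK9 was separated by its range from CRK3 (68.5 FPKM), which was followed by CRK18 (66.5 FPKM), CRK22 (62.02 FPKM), CRK2 (58.02 FPKM) and CRK29 (56.2 FPKM) with overlapping ranges. In DMSO seedlings CRK18 (49.0 FPKM) stood apart at the top, followed by CRK19 (35.5 FPKM), CRK21 (33.3 FPKM), CRK29 (26.02 FPKM) and CRK22 (20.6 FPKM). These 5 genes made up 69.7% of the DMSO family level, and the next member, CRK2, was at 7.96 FPKM. CRK13 was the second highest member in treated seedlings and the sixteenth in DMSO seedlings, where it averaged 2.36 FPKM.

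**Figure D2:**
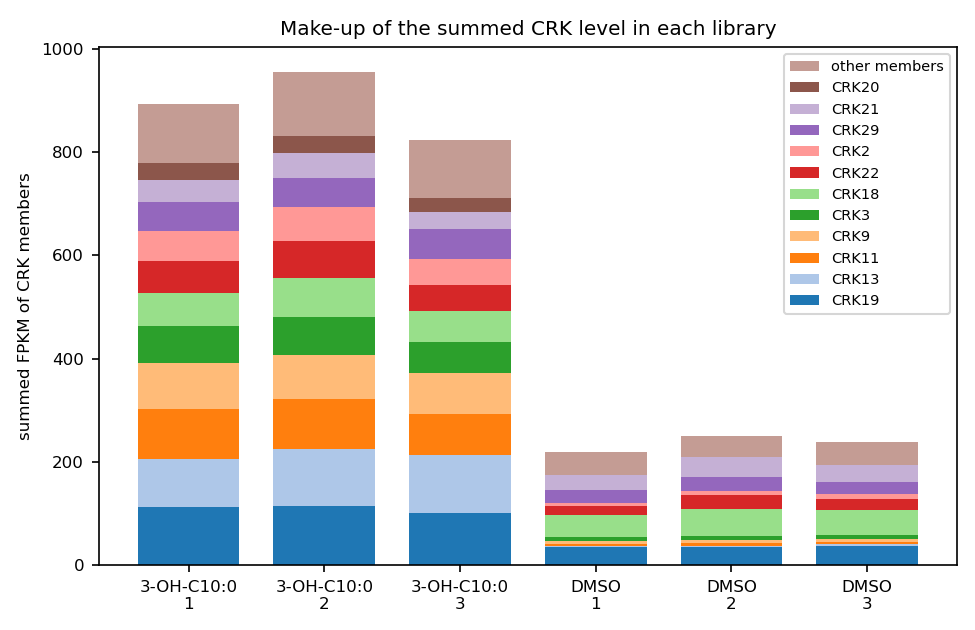
Stacked bars give the summed FPKM of the CRK genes (vertical axis, linear from 0) in each of the 6 libraries, split into the 11 members with the highest treated means and the other members together. The treated libraries reach 824 to 956 FPKM and the DMSO libraries 219 to 249 FPKM, and the segments of CRK13, CRK11, CRK9, CRK3 and CRK2 are wide in treated and thin in DMSO libraries.

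The calls were also sorted by the members' level in DMSO seedlings. Among all tested genes, at any level, 35.6% were higher and 35.8% were lower. Shares for genes of the same DMSO level were not computed. Of the 5 members above 10 FPKM in DMSO seedlings, 4 were higher and CRK21 did not pass, with log2 fold changes between 0.42 and 1.71. Of 17 members between 1 and 10 FPKM, 11 were higher, 4 were lower and 2 did not pass, over a range of -2.68 to 5.55. Of 5 members between 0.1 and 1 FPKM, 3 were higher and 2 did not pass. The remaining 14 members averaged under 0.1 FPKM in DMSO seedlings, and the 11 of them that were tested are those that passed the filter through the treated group alone. The 4 decreases were of genes with 1 to 10 FPKM in DMSO seedlings, the range with the most members. The 11 that passed through the treated group alone could not have been called lower, so the split by level is a description.

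**Figure D3:**
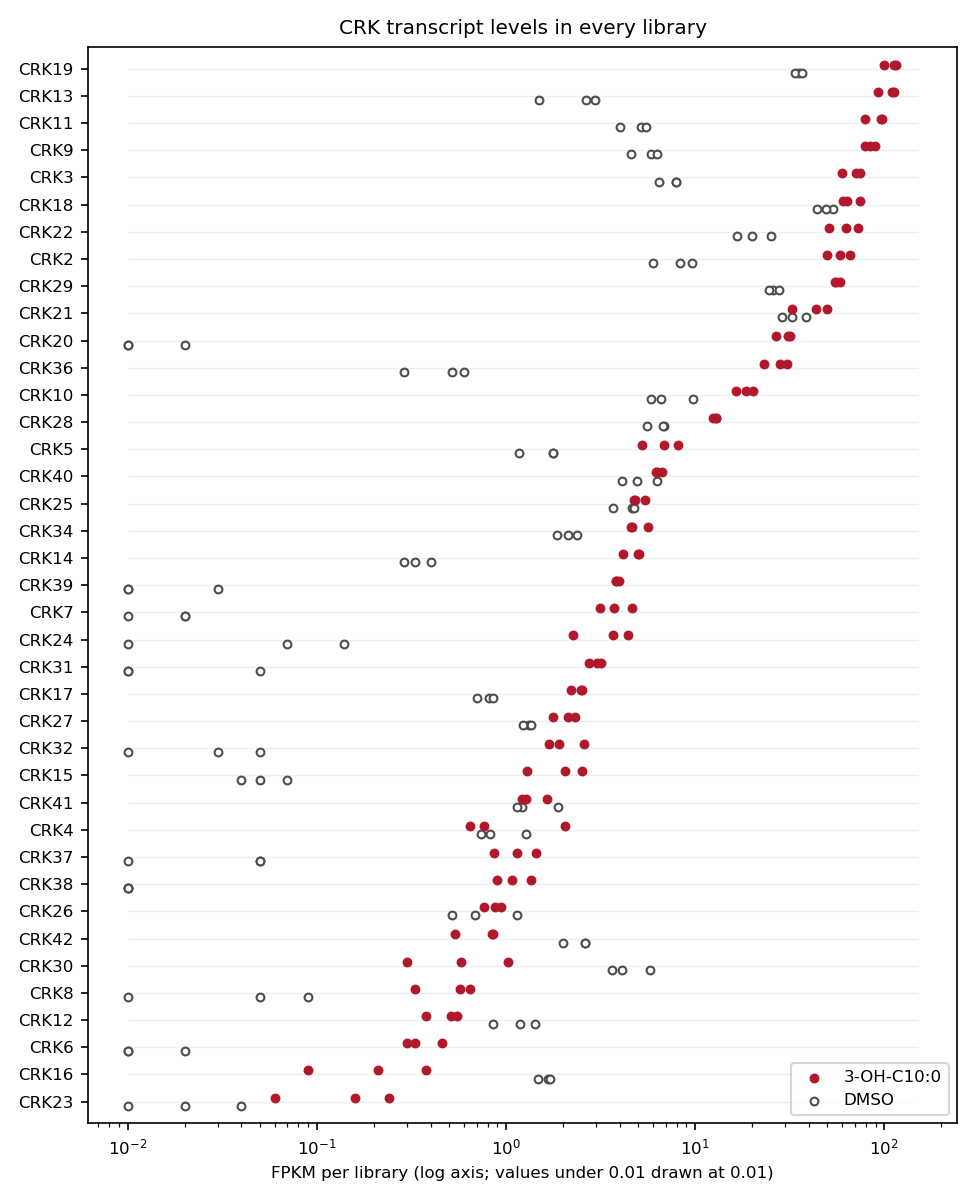
Points give the FPKM (horizontal axis, logarithmic, values under 0.01 drawn at 0.01) of 39 CRK genes in each library, filled red for 3-OH-C10:0 and open for DMSO, with members ordered by their treated mean. CRK20, with 26.9 to 32.0 FPKM in treated libraries, has its DMSO points at the left edge, and the red points lie left of the open ones for CRK42, CRK30, CRK12 and CRK16.

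The largest group of neighbours comprises 20 members, CRK5 to CRK24 (AT4G23130 to AT4G23320), within 74.2 kb of chromosome 4 in TAIR10.1 (chr4:12117491-12191704), with 9 on the plus and 11 on the minus strand and a median gap of 688 bases. Of its 19 tested members 16 were higher, 2 were lower and 1 did not pass, with a median log2 fold change of 3.50. Among all tested genes 35.6% were higher and 35.8% were lower. In this cluster CRK6, CRK7, CRK8, CRK15, CRK20 and CRK24 passed the filter through the treated libraries alone. CRK16 passed it through the DMSO libraries alone, so all of these had to differ and the counts are descriptions. The cluster summed to 635, 682 and 585 FPKM in treated libraries, against 149, 177 and 167 FPKM in DMSO libraries. It held 71.1% of the family level in treated and 69.7% in DMSO seedlings.

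CRK20 (AT4G23280, chr4:12174733-12177576, plus strand), one of the CRKs whose forced expression causes cell death, had the largest fitted change of the family. It had 1247, 1138 and 1436 estimated counts in treated libraries, against 0, 0 and 1 in DMSO libraries. The groups were far apart, and the summed scaled counts gave a ratio of 3784 (679 to 149500, 95% counting interval). The fit gave a log2 fold change of 11.44 ± 0.25 (adjusted p = 1.63e-10), which ranked 1 among 19768 tested genes and became 13.31 without DMSO replicate 3, the library with the single count. With limma on log2(FPKM + 1) it was 4.94, below the 5.005 of CRK13. In FPKM it stood at 31.04, 32.0 and 26.9 in treated libraries, a range that overlapped that of CRK36 (mean 27.2 FPKM).

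CRK19, the upstream neighbour of CRK20 with a gap of 435 bases and another cell death-linked member, is the closest relative of CRK20 in the family, with 81.9% of aligned protein positions identical. It had 113, 115 and 100.4 FPKM in treated libraries, against 35.6, 34.0 and 36.9 FPKM in DMSO libraries. It was thus abundant in both groups and did not overlap between them (log2 fold change 1.71 ± 0.09, adjusted p = 3.27e-08). CRK21, which follows CRK20 after 157 bases on the other strand, had 43.4, 50.1 and 32.5 FPKM in treated libraries and 28.7, 38.8 and 32.5 FPKM in DMSO libraries. Its groups overlapped and it did not pass (0.42 ± 0.17, adjusted p = 0.055), although it passed without treated replicate 3 (adjusted p = 0.00519), without DMSO replicate 2 (0.0186), with DESeq2 (0.0136) and with DESeq2 size factors (0.0458). The neighbours on both sides of CRK20 were thus well expressed in DMSO seedlings, where CRK20 itself was close to absent.

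CRK13, whose overexpression is known to raise salicylic acid and resistance to Pseudomonas, had 93.3, 109 and 113 FPKM in treated libraries, against 1.49, 2.65 and 2.95 FPKM in DMSO libraries. The groups did not overlap (log2 fold change 5.55 ± 0.23, adjusted p = 1.91e-07). Part of its reads were divided with CRK22 by the authors' estimation, since the fractions of both genes added up to whole counts in each library and their transcripts share a stretch of 309 identical bases. CRK22 was itself higher (1.67 ± 0.18), and the pair counted as 1 feature gave 2.95. In DMSO libraries CRK22 had 716, 1183 and 923 counts while CRK13 had 65.0, 125 and 138, so the estimation did not split the reads evenly.

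CRK11 and CRK9 were the next most abundant genes of the cluster after treatment. CRK11 had 96.5, 97.4 and 79.6 FPKM in treated libraries, against 4.01, 5.21 and 5.49 FPKM in DMSO libraries (log2 fold change 4.30 ± 0.14, adjusted p = 1.98e-09). CRK9, listed as EP1 in the reference, had 89.1, 84.4 and 79.2 FPKM in treated libraries, against 5.86, 6.26 and 4.60 FPKM in DMSO libraries (3.999 ± 0.12, adjusted p = 9.18e-10). Neither gene overlapped between the groups. CRK9 is annotated with a protein of 265 residues that holds 2 cysteine motifs but neither of the kinase motifs HRD and DFG, so this annotation gives it the outer part of a CRK without a kinase. CRK10, which overlaps the end of CRK11 on the opposite strand, was higher with a log2 fold change of 1.40 ± 0.18, and without strand information reads from that overlap cannot be told apart.

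CRK5, CRK6 and CRK7 open the cluster. CRK5, known from its links to WRKY18, WRKY40 and WRKY60, had 6.83, 8.11 and 5.25 FPKM in treated libraries, against 1.77, 1.78 and 1.17 FPKM in DMSO libraries, with no overlap (log2 fold change 2.17 ± 0.20, adjusted p = 5.54e-06). CRK7, which together with CRK6 is known for protecting against extracellular oxidative stress, had 129, 135 and 255 counts in treated libraries, against 0, 1 and 1 in DMSO libraries. Its ratio was 257 (95% counting interval 70.8 to 2127). CRK6 had 13.7, 18.3 and 20.03 estimated counts in treated libraries, against 0, 1 and 0 in DMSO libraries, and CRK8 had 45.3, 45.7 and 35.0 against 4, 7 and 0. Both were low in all libraries and higher in every treated one, with a ratio of 51.5 (8.84 to 2072) for CRK6 and a log2 fold change of 3.50 ± 0.58 for CRK8. These genes share a stretch of 383 identical bases and divided reads between them, and as 1 feature they gave 3.87. Single libraries weighed on both: without DMSO replicate 2 the fitted log2 fold change of CRK6 was 7.13 in place of 5.25 and that of CRK8 was 4.33, and without DMSO replicate 3 that of CRK8 was 2.90.

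Further members of the cluster were low in DMSO seedlings. CRK14 had 5.01, 5.05 and 4.17 FPKM in treated libraries, against 0.40, 0.33 and 0.29 FPKM in DMSO libraries (log2 fold change 3.88 ± 0.18, adjusted p = 1.84e-08). CRK15 had 89, 97 and 75 counts in treated libraries, against 2, 2 and 3 in DMSO libraries (5.18 ± 0.41, adjusted p = 9.05e-07). CRK24 had 119, 87 and 81 counts in treated libraries, against 0, 4 and 2 in DMSO libraries (5.52 ± 0.52, adjusted p = 5.30e-06). The groups did not overlap for any of these 3 genes. CRK15 and CRK24, however, passed the filter through the treated libraries alone and so had to differ. The value of CRK24 was 6.43 without DMSO replicate 2. CRK23, which was not tested, had a count ratio of 7.59 (2.29 to 39.5). CRK17, named EMB1290 in the reference, and CRK18 were higher by log2 fold changes of 1.69 ± 0.15 and 0.52 ± 0.11. They divided reads over a shared stretch of 128 bases, and as 1 feature they gave 0.56, close to the value of CRK18, which supplied most of the counts.

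A pair of genes in the cluster went the other way. CRK12 had 0.38, 0.51 and 0.55 FPKM in treated libraries, against 1.19, 0.86 and 1.43 FPKM in DMSO libraries (log2 fold change -1.17 ± 0.28, adjusted p = 0.00315). CRK16 had 2, 4 and 11 counts in treated libraries, against 34, 33 and 38 counts in DMSO libraries (-2.64 ± 0.39, adjusted p = 1.32e-04). Both fell in every treated library, and CRK16 was at -3.32 without treated replicate 3, its highest treated library. CRK16 passed the filter through the DMSO libraries alone. It overlaps CRK17 on the same strand in TAIR10.1, and the length implied by its count and FPKM, 1061 bases, is 0.53 of its coding length there. TAIR10.1 lists 2 transcripts for it, and which transcript or gene model lay behind the counts was not tested. CRK16 and CRK17 nevertheless moved in opposite directions in the deposited counts.

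The 5 members from CRK36 to CRK40 (AT4G04490 to AT4G04570, chr4:2231717-2292965 in TAIR10.1) were all higher, where 35.6% of all tested genes were. Their median log2 fold change was 5.92. CRK37, CRK38 and CRK39 passed the filter through the treated libraries alone and so had to differ. CRK36, which is known to bind the immune kinase BIK1 and to act with FLS2, had 28.0, 30.5 and 23.3 FPKM in treated libraries, against 0.52, 0.60 and 0.29 FPKM in DMSO libraries. It did not overlap between the groups and carried most of the treated level of this set (5.92 ± 0.19, adjusted p = 2.75e-09). CRK37 had 48, 53 and 48 counts in treated libraries, against 0, 2 and 2 in DMSO libraries (5.11 ± 0.51, adjusted p = 5.66e-06). CRK38 had 49, 54 and 54 counts in treated libraries and none in DMSO libraries, and was at least 51.8-fold higher against a floor of 3 counts over the DMSO group. Both were near 1 FPKM in treated libraries and had at most 2 counts in any DMSO library.

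CRK39 and CRK40 are relatives whose reads can be shared in part. They share 78.7% of protein positions and an identical run of 182 transcript bases inside the coding region, which is shown because reads that fall within it fit both genes. It lies at chr4:2261568-2261915 in CRK39 and at chr4:2292100-2292494 in CRK40 in TAIR10.1 (RefSeq), both on the plus strand and both interrupted by an intron in the genome.
CRK39 and CRK40 shared run: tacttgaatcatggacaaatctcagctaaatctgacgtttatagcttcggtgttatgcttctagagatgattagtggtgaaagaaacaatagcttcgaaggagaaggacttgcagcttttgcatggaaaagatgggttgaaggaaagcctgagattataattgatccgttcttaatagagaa

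CRK39 had 159, 136 and 205 estimated counts in treated libraries, against 1.01, 0 and 0 in DMSO libraries, a ratio of 495 (95% counting interval 88.5 to 19590). CRK40 had 265, 236 and 372 estimated counts in treated libraries, against 249, 176 and 211 in DMSO libraries. CRK40 was thus present in both groups while CRK39 was close to absent from DMSO libraries, where nearly all counts of the pair were assigned to CRK40. The log2 fold change of CRK40 was 0.43 ± 0.14 (adjusted p = 0.0171), and the call was lost without DMSO replicate 2 (0.0701), without DMSO replicate 3 (0.0612), under total-count scaling (0.0538) and with limma on FPKM (0.0779 to 0.102). The pair as 1 feature gave 1.09, and the fitted value of CRK39, 8.49, became 10.39 without DMSO replicate 1.

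The group CRK30 to CRK34 (AT4G11460 to AT4G11530, chr4:6963521-6989793) held both directions among neighbours. In this group CRK31 and CRK32 passed the filter through the treated libraries alone and so had to differ. CRK31 had 130, 99 and 165 counts in treated libraries, against 0, 2 and 0 in DMSO libraries, a ratio of 195 (53.7 to 1616). CRK32 had 77, 92 and 91 counts in treated libraries, against 1, 0 and 2 in DMSO libraries, a ratio of 85.8 (29.04 to 419). These genes share 78.7% of protein positions, and their fitted log2 fold changes of 7.36 and 6.28 became 10.02 without DMSO replicate 2 and 7.10 without DMSO replicate 3. CRK30, the gene next to CRK31 on the same strand, had 0.30, 0.58 and 1.02 FPKM in treated libraries, against 5.79, 3.62 and 4.13 FPKM in DMSO libraries. It fell in every treated library (-2.68 ± 0.35, adjusted p = 1.86e-04), to -3.28 when treated replicate 3 was left out. CRK34 was higher (1.296 ± 0.15), and CRK33 had no count.

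CRK2 (AT1G70520) and CRK3 (AT1G70530) lie next to each other on the minus strand of chromosome 1 (chr1:26584729-26591776), and CRK2 is known to phosphorylate RBOHD and to control callose deposition. CRK2 had 58.4, 65.7 and 50.1 FPKM in treated libraries, against 5.97, 8.29 and 9.63 FPKM in DMSO libraries (log2 fold change 2.94 ± 0.18, adjusted p = 1.35e-06). CRK3 had 71.2, 74.8 and 59.5 FPKM in treated libraries, against 6.46, 7.97 and 7.90 FPKM in DMSO libraries (3.28 ± 0.12, adjusted p = 3.47e-09). The groups did not overlap for either gene, and together they supplied 14.2% of the family level in treated and 6.54% in DMSO seedlings.

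CRK27, CRK28 and CRK29 (AT4G21230 to AT4G21410) were all higher by smaller amounts. They were grouped by locus code, and CRK27 ends at chr4:11321679, well before CRK28 begins at chr4:11398857. CRK28, known to associate with BAK1 and FLS2, had 12.5, 12.9 and 12.9 FPKM in treated libraries, against 6.87, 6.77 and 5.60 FPKM in DMSO libraries (log2 fold change 1.08 ± 0.10, adjusted p = 3.56e-06). Its relative CRK29, with 80.3% of protein positions identical, was about as responsive (1.19 ± 0.09) at a higher level of 56.2 FPKM in treated and 26.02 FPKM in DMSO seedlings, and CRK27 gave 0.76 ± 0.18. The annotated genes CRK28 and CRK29 overlap on the same strand, so reads from that overlap are uncertain.

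None of the members outside these groups was called higher. CRK42 (AT5G40380, chr5:16151522-16155215, plus strand) had 0.54, 0.84 and 0.86 FPKM in treated libraries, against 2.62, 2.01 and 2.63 FPKM in DMSO libraries, and fell without overlap (log2 fold change -1.60 ± 0.21, adjusted p = 4.72e-05). CRK4, another member linked to FLS2 and to cell death, had 0.77, 0.65 and 2.05 FPKM in treated libraries, against 0.74, 0.82 and 1.28 FPKM in DMSO libraries. Its groups overlapped (0.43 ± 0.46, adjusted p = 0.426), and the estimate was -0.32 without treated replicate 3. CRK25 (0.29, adjusted p = 0.0723), CRK26 (0.21, adjusted p = 0.549) and CRK41 (0.06, adjusted p = 0.824) did not pass. The estimated counts of CRK25 added up to whole numbers with those of the kinesin gene ATK5, which overlaps it by 492 bases on the opposite strand. Of these loci, single among the 42 listed, 0 of 5 tested were thus higher and 1 was lower, and CRK1 had no count. Among all tested genes 35.6% were higher and 35.8% were lower, and 5 genes are too few to set against these shares. By locus code CRK41 (AT4G00970) is next to CRK44 (AT4G00960), which is not among the 42. The median log2 fold change of the 5 tested single loci was 0.21, and whether they differ from the members in groups was not tested.

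Protein features were read from the coding sequences of 40 members, using the longest annotated protein of each. Of these, 36 held exactly 2 cysteine motifs, CRK24 and CRK27 held 1, CRK23 held 3 and CRK17 held 4. Both kinase motifs, the catalytic loop HRD and the magnesium-binding DFG, were found in 37. In the proteins read, CRK8 and CRK9 lacked both and CRK22 lacked HRD. CRK8 has 3 annotated transcripts, and its other models were not searched. The median protein had 661 residues. Over 780 pairs, identity ranged from 9.42% to 81.9% with a median of 39.8%. The 4 closest pairs gave these values side by side, whose differences were not tested. CRK28 and CRK29 had log2 fold changes of 1.08 and 1.19, and CRK31 and CRK32 had count ratios of 195 and 85.8. CRK19 and CRK20, and CRK39 and CRK40, each paired a gene present in DMSO seedlings to one with 1 count there.

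Promoters were searched for the W box, the DNA element of WRKY factors, as TTGACC or TTGACT on either strand, and for the TGA factor element, as TGACG on either strand. At the same position of a strand a sequence cannot match both. In the window from 250 bases before to 50 bases after the gene start, 26 of 41 coding members (63.4%) held a W box, against 32.4% of 27443 promoters of all coding genes, and 11 members held 2 or more, against 7.70%. A TGA element was found in 15 members (36.6%) and in 23.1% of all promoters. In the 1000 bases before the start, the W box shares were 87.8% and 67.3%. By response, a W box was held by 14 of the 17 members that were at least 8-fold higher, 20 of the 29 that were higher, 2 of the 4 that were lower and 3 of the 5 that did not pass. The 11 members that passed the filter through the treated libraries alone are all among these 17 and had to differ. The split by response is therefore a description. Among all tested genes the shares were 56.0% for those at least 8-fold higher, 41.1% for those higher, 27.0% for those lower and 31.1% for those that did not pass. The window of CRK16, which holds W boxes, lies within the annotated gene CRK17. That of CRK28, without a W box, lies within CRK29. These matches are a description of letters and no binding was measured.

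**Figure D4:**
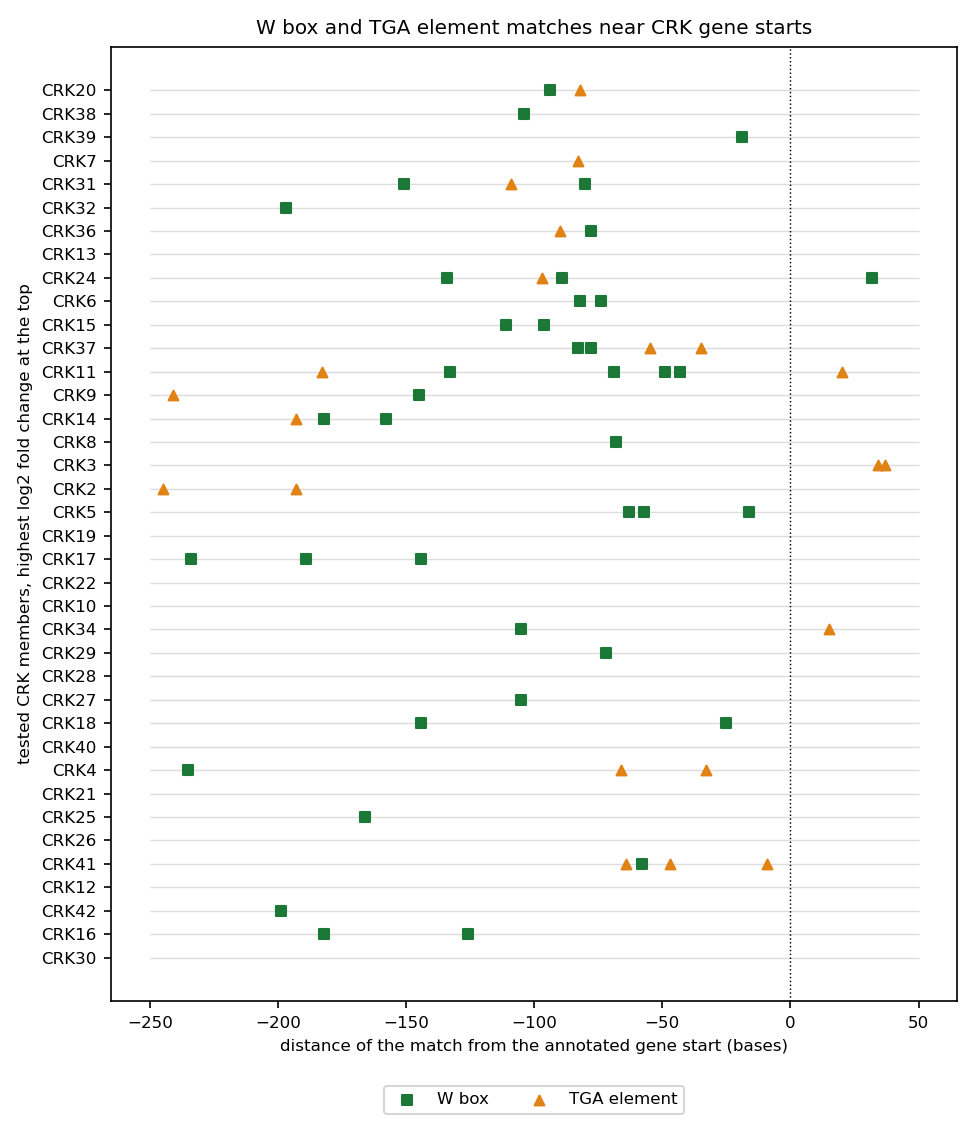
Green squares mark W boxes and orange triangles mark TGA elements by distance in bases from the annotated gene start (horizontal axis) for the 38 tested CRK genes, ordered by log2 fold change with the highest at the top. The W boxes of the upper rows lie mostly before the start, CRK11 has 4, and CRK13 and CRK30 have none.

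The 4 windows below show the contrast among members: CRK20 with the largest change in the edgeR fit, CRK11 with the most W boxes, CRK13 with a large change and no match, and CRK42, which fell and holds a W box. They were read from TAIR10.1 (RefSeq) at chr4:12174483-12174782 (plus strand), chr4:12143809-12144108 (minus), chr4:12151589-12151888 (minus) and chr5:16151272-16151571 (plus). Each is written 5′ to 3′ along the gene, and capitals mark W boxes on either strand.
CRK20: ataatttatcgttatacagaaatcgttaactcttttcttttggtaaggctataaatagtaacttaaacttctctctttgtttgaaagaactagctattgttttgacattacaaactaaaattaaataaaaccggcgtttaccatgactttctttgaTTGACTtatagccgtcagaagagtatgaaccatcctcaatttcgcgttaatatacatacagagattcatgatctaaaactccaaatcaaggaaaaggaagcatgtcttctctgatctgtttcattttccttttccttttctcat
CRK11: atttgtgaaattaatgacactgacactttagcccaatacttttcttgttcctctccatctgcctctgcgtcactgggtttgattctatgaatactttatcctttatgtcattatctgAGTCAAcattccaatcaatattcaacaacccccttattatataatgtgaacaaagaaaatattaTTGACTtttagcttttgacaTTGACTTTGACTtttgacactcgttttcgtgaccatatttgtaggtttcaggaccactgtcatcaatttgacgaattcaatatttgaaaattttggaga
CRK13: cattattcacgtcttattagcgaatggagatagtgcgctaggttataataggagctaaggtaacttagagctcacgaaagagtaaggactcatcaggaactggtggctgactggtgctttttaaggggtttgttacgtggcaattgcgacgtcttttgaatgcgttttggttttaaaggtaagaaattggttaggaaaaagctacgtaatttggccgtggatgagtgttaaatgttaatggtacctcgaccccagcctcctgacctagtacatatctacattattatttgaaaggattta
CRK42: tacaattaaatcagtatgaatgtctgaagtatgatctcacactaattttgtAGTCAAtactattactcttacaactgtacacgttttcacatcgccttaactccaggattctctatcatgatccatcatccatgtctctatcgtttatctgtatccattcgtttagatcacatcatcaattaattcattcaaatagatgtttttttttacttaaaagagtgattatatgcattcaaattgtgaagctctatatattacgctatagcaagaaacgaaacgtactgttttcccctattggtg

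The window of CRK20 takes 250 of the 435 bases between CRK19 and CRK20 and the first 50 bases of CRK20. It holds its W box at -94, followed by a TGA element at -82. CRK11 has W boxes at -133, -69, -49 and -43, of which the last pair adjoin. CRK42 has its only W box in the window farther out, at -199. CRK13 was 47.0-fold higher in the fit with neither motif in these 300 bases, so a match in this window did not mark every member with a large change.

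Further genes named as CRKs, and other families known for DUF26 domains, were read from the same fit. The domains of these genes were not searched here. CRK45, a kinase named as a CRK with a known part in disease resistance, had 44.6, 46.9 and 38.5 FPKM in treated libraries. In DMSO libraries it had 0.38, 0.58 and 0.45 FPKM (log2 fold change 6.61 ± 0.16, adjusted p = 2.37e-10), and the groups did not overlap. CRK43 and CRK44 were also higher (1.58 and 2.40), and CRK46 had no count. CRK44 and CRK45 reached the filter's level in all treated but not in all DMSO libraries. Of the 8 plasmodesmata-located proteins (PDLP1 to PDLP8), which have DUF26 domains but no kinase, 3 were higher, 3 were lower and 2 did not pass, namely PDLP4 (-0.36, adjusted p = 0.458) and PDLP6 (-0.01, adjusted p = 0.96). These shares, 37.5% in each direction, are near the 35.6% and 35.8% of all tested genes and say nothing particular of the PDLPs. PDLP5, a regulator of callose at plasmodesmata, was among the higher ones (2.52 ± 0.11) and PDLP3 among the lower ones (-1.94 ± 0.14). Among 50 loci that the reference describes with the cysteine-rich repeat of secreted proteins, 10 were tested, 9 were higher and 1 was lower, where 35.6% of all tested genes were higher. Of the 9, 5 reached the filter's level in all treated but not in all DMSO libraries, so this count is a description. AT5G48540, which reached the filter's level in all libraries, had 201 ± 32.1 CPM in treated against 5.52 ± 0.53 CPM in DMSO seedlings (5.18 ± 0.15, adjusted p = 8.53e-10). The lower one, sks3, carries the name of another gene family.

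Of 11 published partners and regulators of CRKs, 9 were higher, against 35.6% of all tested genes. The list was chosen with earlier results of these data known, so this count is a description. WRKY70 averaged 168 ± 17.6 CPM in treated and 5.65 ± 1.28 CPM in DMSO seedlings (log2 fold change 4.89 ± 0.16, adjusted p = 5.18e-09). BAK1 averaged 299 ± 9.67 CPM in treated and 69.7 ± 0.92 CPM in DMSO seedlings (2.102 ± 0.08, adjusted p = 5.30e-09). RBOHD, WRKY40 and WRKY60 were higher by 3.09, 2.76 and 2.65. FLS2 (-0.24 ± 0.11, adjusted p = 0.084) and the callose synthase CALS1 (-0.003 ± 0.11, adjusted p = 0.983) did not pass. FLS2 had 23.5, 24.01 and 22.3 CPM in treated libraries, all below the 25.4, 32.4 and 24.2 CPM of the DMSO libraries.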

How the data were processed

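Per the labels' protocols, total RNA of whole seedlings was extracted with TRIzol and sequenced on a HiSeq2500. Per the submitters' processing notes, the tools included HISAT2 2.2.4 and Bowtie2 2.2.8 beside fastp 0.18.0, RSEM and StringTie 1.3.1, with the build TAIR10. In the sources used here, step order, RSEM version and strandedness are not given. The authors deposited estimated counts per locus without normalisation, per the file headers. Of these values 3.49% were not whole (tolerance 0.001), and they were rounded here. The deposited FPKM values were computed by the authors, per the file headers, and were used as they stand.

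The 6 libraries form 2 groups of 3 by their titles. Genes were kept by filterByExpr of edgeR 4.0.16 (minimum count 10; R 4.3.3), scaled by TMM and tested, two-sided, with the robust quasi-likelihood F test over 19768 genes, without a block. The common biological coefficient of variation was 11.3%. Standard errors are the size of the log2 fold change over the square root of F. The procedure was tested on simulated data. Alternatives were DESeq2 1.42.0, DESeq2 size factors, total-count scaling, other count filters, limma 3.58.1 on log2(FPKM + 1) and log2(FPKM + 0.1), a replicate block, leaving out each library, and, added after seeing the data, summing read-sharing pairs. Libraries of a group were not copies of each other by the mean chi-square per gene. It was 4.81 between treated replicates 1 and 2, and 23.3 and 23 between these and treated replicate 3. Pairs of DMSO libraries gave 6.17 to 13.4.

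Members and lists were chosen with earlier results of these data known. Values per library are given for members past the threshold with a log2 fold change of at least 3 in size, for those that fell and for members with a published role (CRK19, CRK21 and CRK40 were added after their values were seen). Of related genes, those with the smallest p and those that did not pass are named. PDLP3, PDLP5, sks3, RBOHD, WRKY40, WRKY60, the mesophyll marker LHCB2.1 and the root markers AGP30, PYK10 and EXPA7 were added after their values were seen. The files carry no coordinates, so positions, promoters and coding sequences were taken by locus code from TAIR10.1. Proteins were aligned globally with BLOSUM62 (Biopython 1.88).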

Additional observations from a re-analysis of the deposited data

How the results depend on the processing

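The numbers of members called kept within 1.5 times of the main counts under all alternatives run: 24 to 31 were higher (29 in the main setting) and 3 to 4 were lower, over all tested genes 6264 to 7226 higher and 6377 to 7959 lower. Leaving out each library in turn gave 28 to 30 members higher and 4 lower. Same-numbered libraries of the groups did not deviate together (r = 0.041, -0.01 and 0.136), so the numbers were not taken as a pairing, and with a replicate block 30 members were higher and 4 lower (7063 and 7087 genes); of the members' calls it changed that of CRK21, which then passed (0.42, adjusted p = 0.0093). Read-sharing pairs summed into 1 feature left 25 higher of 34 tested. Of the values of single members under the alternatives, 9 changed sign, all of genes that did not pass. CRK41 had -0.024 under total-count scaling, and -0.014, -0.015 and -0.014 with limma on log2(FPKM + 1), on log2(FPKM + 0.1) and without its filter. Leaving out 1 library gave CRK4 between -0.320 (without treated replicate 3) and 0.704, CRK26 between -0.009 (without DMSO replicate 2) and 0.567, and CRK41 between -0.095 and 0.304, below 0 without treated replicate 3, DMSO replicate 2 or DMSO replicate 3; the cause was not tested. A further 5 passed the threshold (CRK21) and 6 lost it (CRK40). The planned summing of proteins at least 85% identical was not run, since the highest identity was 81.9%. Folds of genes near 0 counts in DMSO libraries are limited by depth and by the pseudocount: CRK20 had 4.94 with limma on log2(FPKM + 1), filtered or not, where CRK13 stood above it at 5.005.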
